A study of Mus musculus with 23 samples.

Results

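The respiratory chain is a row of protein complexes in the inner mitochondrial membrane that passes electrons to oxygen and pumps protons, and ATP synthase uses the proton gradient to make ATP. The members described are the array's gene symbols that begin with Nduf, Uqcr or Atp5, that read Sdha, Sdhb, Sdhc or Sdhd, or that begin with Cox and a digit from 4 to 8. This rule took 90 of the 34797 symbols on the array, and each gene was read from its brightest probe. By role they are 36 subunits of complex I (NADH dehydrogenase), 4 of complex II (succinate dehydrogenase), 8 of complex III (cytochrome bc1), 11 widely expressed subunits of complex IV (cytochrome c oxidase, with Ndufa4) and 15 of complex V (ATP synthase). The muscle forms Cox6a2, Cox7a1 and Cox8b make 3 more, other tissue-restricted forms 5, complex I assembly factors 4 and associated proteins 3. The last symbol, Cox4nb, was matched by its letters alone: RefSeq names it Emc8, a subunit of a membrane protein complex of the endoplasmic reticulum.

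Messenger RNA came from the circumvallate papillae, which carry taste buds on the rear tongue, of male C57Bl6j mice, and was measured on 23 1-colour Agilent arrays. The Lean group (n = 7) ate chow of 3% fat by weight without limit. The DIO group (n = 8) ate a high-fat diet in which saturated fat predominates and which makes mice obese. The DIO-R group (n = 8) is taken to be the DIO mice given 60% of their free energy intake, which the labels do not spell out. All groups share the strain and sex. Age, diet length, and whether each array is a separate animal are not given in the sources used here, so p-values measure the spread between these samples, which may be technical. The papilla was cut out after elastase and dispase had loosened the lingual epithelium from the tissue beneath.

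The arrays lay on 3 slides, each holding all groups, and correlations between arrays over genes ran from 0.96 to 0.991. Between 66.9% and 78.4% of probes were well above background and no spot was saturated; arrays have no read depth, and their number limits the precision. The tissue's own markers were there: 8 of 8 taste bud genes and 8 of 8 keratinocyte genes on the lists were kept. All 31 skeletal muscle markers were kept too, and 30 of them were well above background on every array, the exception being Tnnc1 on 12 of 23. All 9 adipocyte markers were kept, with Adipoq and Cidec well above background on 17 arrays each. Of 4 genes listed as brown adipocyte markers, Cidea and Otop1 were well above background on 23 arrays each, Ucp1 on 13 and Elovl3 on 0. Whether the signal of Cidea and Otop1 came from brown adipocytes was not tested.

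Cells of most kinds build the same set of respiratory subunits, and a few subunits of cytochrome c oxidase come in more than 1 form. Striated muscle uses Cox6a2, Cox7a1 and Cox8b (the last 2 are also made in brown fat), where most other cells use Cox6a1, Cox7a2 and Cox8a. The nuclear genes of widely expressed subunits are known targets of the transcription factors NRF1 and NRF2 (GABP, an ETS factor), and genes specific to muscle are known targets of MEF2 and of myogenic factors that bind E-boxes. The promoters of both kinds of form are shown because the 2 kinds behaved differently between arrays. Of the 90 members, 74 had a promoter in the RefSeq table of build GRCm38.p6; Cox6a2 is named only. Each sequence is the 250 bases before the start of transcription, on the gene's strand, with matches on either strand to 4 motifs in capitals. These are MEF2 (CTA and TAG with 4 bases between), a myogenic E-box (CAGCTG), NRF1 (GCGCA and GCGC with 1 base between) and ETS (CCGGAAG). No matches overlap in these sequences.

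The muscle form Cox7a1 (chr7:30183921-30184170, plus strand) held no match:
Cox7a1: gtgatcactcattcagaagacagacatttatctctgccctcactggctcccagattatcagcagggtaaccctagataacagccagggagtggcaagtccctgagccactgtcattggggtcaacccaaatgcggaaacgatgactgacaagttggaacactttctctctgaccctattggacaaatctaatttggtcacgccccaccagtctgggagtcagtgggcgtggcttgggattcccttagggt
The muscle form Cox8b (chr7:140900447-140900696, minus strand) held an E-box match at -19 to -14 from the start:
Cox8b: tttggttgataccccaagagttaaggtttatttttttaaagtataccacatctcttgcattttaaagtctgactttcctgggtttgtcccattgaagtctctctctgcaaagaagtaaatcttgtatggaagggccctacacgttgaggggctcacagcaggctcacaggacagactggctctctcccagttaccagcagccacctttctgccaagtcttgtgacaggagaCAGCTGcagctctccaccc
The widely expressed Cox6a1 (chr5:115348959-115349208, minus strand) held NRF1 matches at -162 to -153 and -117 to -108 and an ETS match at -16 to -10:
Cox6a1: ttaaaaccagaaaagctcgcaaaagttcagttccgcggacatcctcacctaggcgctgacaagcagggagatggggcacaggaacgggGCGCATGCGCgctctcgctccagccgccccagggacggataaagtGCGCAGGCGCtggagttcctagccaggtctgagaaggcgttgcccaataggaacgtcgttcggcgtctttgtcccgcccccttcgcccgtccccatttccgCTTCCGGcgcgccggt
The widely expressed Cox7a2 (chr9:79759854-79760103, minus strand) held no match:
Cox7a2: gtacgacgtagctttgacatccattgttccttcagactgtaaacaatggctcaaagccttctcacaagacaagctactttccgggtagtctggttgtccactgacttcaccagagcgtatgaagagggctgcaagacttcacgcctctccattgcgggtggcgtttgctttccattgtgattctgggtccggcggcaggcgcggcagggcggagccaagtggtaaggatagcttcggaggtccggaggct
The widely expressed Cox8a (chr19:7217617-7217866, minus strand) held no match:
Cox8a: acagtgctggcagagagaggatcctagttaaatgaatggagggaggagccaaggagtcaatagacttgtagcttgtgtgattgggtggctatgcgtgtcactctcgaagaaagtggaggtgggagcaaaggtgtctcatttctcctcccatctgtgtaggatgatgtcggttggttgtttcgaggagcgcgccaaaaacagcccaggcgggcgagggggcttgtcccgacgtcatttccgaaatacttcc
Ndufa5 (chr6:24527527-24527776, minus strand), a complex I subunit shown because it had the steepest relation to the muscle markers outside the muscle forms, held an NRF1 match at -190 to -181; RefSeq lists a second start for this gene, from which the same match lies at -26 to -17:
Ndufa5: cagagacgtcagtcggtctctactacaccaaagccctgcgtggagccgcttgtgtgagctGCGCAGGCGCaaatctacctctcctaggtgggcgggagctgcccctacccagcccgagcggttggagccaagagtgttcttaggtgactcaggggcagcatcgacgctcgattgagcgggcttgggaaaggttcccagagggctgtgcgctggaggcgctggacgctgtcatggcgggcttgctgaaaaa

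Over the 68 promoters of 63 widely expressed subunits, 20.6% held the NRF1 letters, against 5.18% of all 21263 protein-coding promoters of the same length. The ETS letters stood in 17.6% of them, against 8.98% of all. The MEF2 letters stood in 1.47% (3.06% of all) and the E-box in 7.35% (12.1% of all). Letters for YY1 (AAGATGGC) stood in 1.47% (1.5% of all), for the GC box (GGGCGG) in 32.4% (42.6%) and for the TATA box (TATAAA) in 8.82% (11.6%). The 13 genes with NRF1 letters were Atp5c1, Atp5g2, Atp5h, Atp5k, Cox6a1, Ndufa11, Ndufa5, Ndufa8, Ndufb4, Ndufs5, Ndufs6, Sdha and Sdhd. These shares describe letters in a short window and not binding.

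Levels are given on a log2 scale, as each spot's background-subtracted intensity relative to the 75th percentile of its array, so 0 is the level below which 75% of an array's spots lie, and a difference of 1 is a doubling. Of the 90 members, 88 passed the filter on dim probes (well above background on at least 7 arrays), and each of these 88 was well above background on all 23. The other two, Cox7b2 and Cox8c, forms known from testis, were well above background on 0 of 23 arrays and were not tested. Each gene was tested with limma, using the 23 arrays and their 3 group means, with Benjamini-Hochberg adjustment over the 28209 genes kept and a threshold of 0.05.

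No respiratory chain member passed the test in any of the 3 comparisons, and the groups compared overlapped for all 88. Over all genes, groups without overlap were also rare, at 0.121% (DIO against Lean), 0.0886% (DIO-R against DIO) and 0.305% (DIO-R against Lean), so 0 of 88 is near the background. Of all genes, 0.00354% passed between DIO and Lean, 0.0603% between DIO-R and DIO, and 0.128% between DIO-R and Lean. At an unadjusted p under 0.05 the members gave 0, 1 and 2 genes of 88 in these comparisons by limma, which is 0%, 1.14% and 2.27%. All genes gave 8.96%, 9.73% and 8.94%. The members' differences were small: the median of their absolute log2 difference was 0.03, 0.09 and 0.08, against 0.12, 0.13 and 0.13 over all genes.

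**Figure D1:**
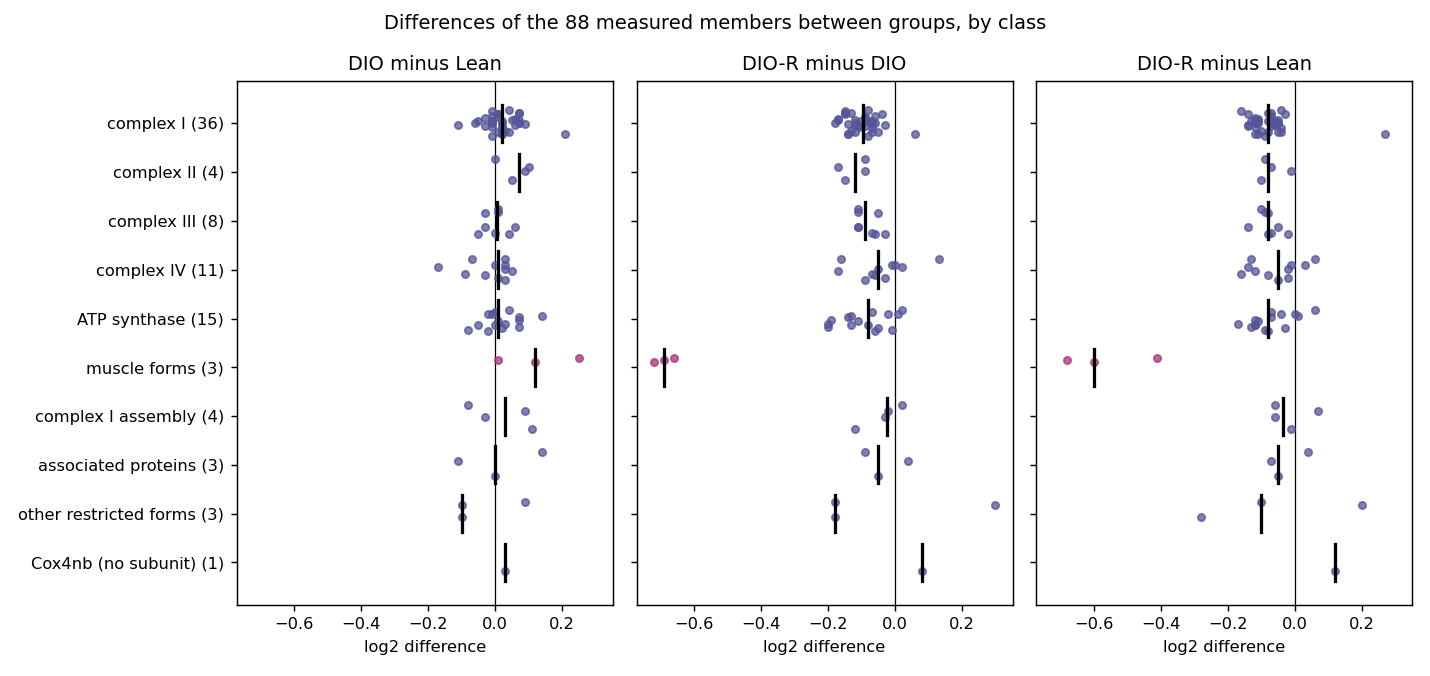
Log2 difference of each of the 88 measured members (points) by class in the 3 comparisons, with the class median as a black bar; the number of genes is in parentheses. In DIO-R minus DIO the muscle forms lie between -0.72 and -0.66, and the other classes lie within 0.30 of 0.

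The muscle forms differed most in size between DIO-R and the other groups, and also varied most between arrays of a group. Cox6a2, which encodes the form of subunit 6a used in heart and skeletal muscle (probe at mm9 chr7:135349160-135349219), ran from 4.68 over a median of 6.38 to 7.05 in Lean. In DIO it ran from 5.29 over 6.35 to 6.89, and in DIO-R from 3.62 over 5.56 to 6.73. The lowest DIO-R arrays, replicates 5 and 10, lay below every other array of the study, and the remaining DIO-R arrays lay within the range of the other groups. Its DIO-R mean was 0.69 ± 0.40 (SE) below DIO, a 1.61-fold difference (limma adjusted p = 0.56).

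Cox7a1, the muscle form of subunit 7a (mm9 chr7:30970337-30970948, a span longer than a probe because it crosses an intron), ran from 4.24 over 6.06 to 6.80 in Lean. It ran from 4.91 over 5.95 to 6.57 in DIO and from 3.18 over 5.21 to 6.39 in DIO-R. Its DIO-R mean was 0.72 ± 0.42 below DIO (limma adjusted p = 0.563). Cox8b, the muscle form of subunit 8 (mm9 chr7:148084852-148084911), ran from 3.90 over 5.51 to 6.55 in Lean, from 4.76 over 5.79 to 6.35 in DIO and from 2.94 over 5.2 to 6.12 in DIO-R. Its DIO-R mean was 0.66 ± 0.42 below DIO (limma adjusted p = 0.591). For all 3 forms the lowest array was DIO-R replicate 5 and the highest Lean replicate 7, and the groups overlapped over most of their range.

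Against Lean, the DIO-R means were 0.68 ± 0.41 lower for Cox6a2, 0.60 ± 0.44 for Cox7a1 and 0.41 ± 0.44 for Cox8b (limma adjusted p = 0.655, 0.703 and 0.801). DIO and Lean were closer, at 0.01 ± 0.41, 0.12 ± 0.44 and 0.25 ± 0.44 in that order (limma adjusted p = 0.998, 0.964 and 0.914). The DIO-R difference from DIO was not the same on the 3 slides: the median of the muscle forms was -0.58 on slide 1, -1.41 on slide 2 and 0.16 on slide 3. Slide 2 holds DIO-R replicates 4, 5 and 10, and without replicates 5 and 10 the median was -0.21. The skeletal muscle markers moved with these differences: 28 of 31 lay lower in DIO-R than in DIO, with a median of -0.57, and none passed the test (lowest adjusted p = 0.449). With the mean of the muscle markers as a covariate, the muscle forms' median difference between DIO-R and DIO was -0.09.

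**Figure D2:**
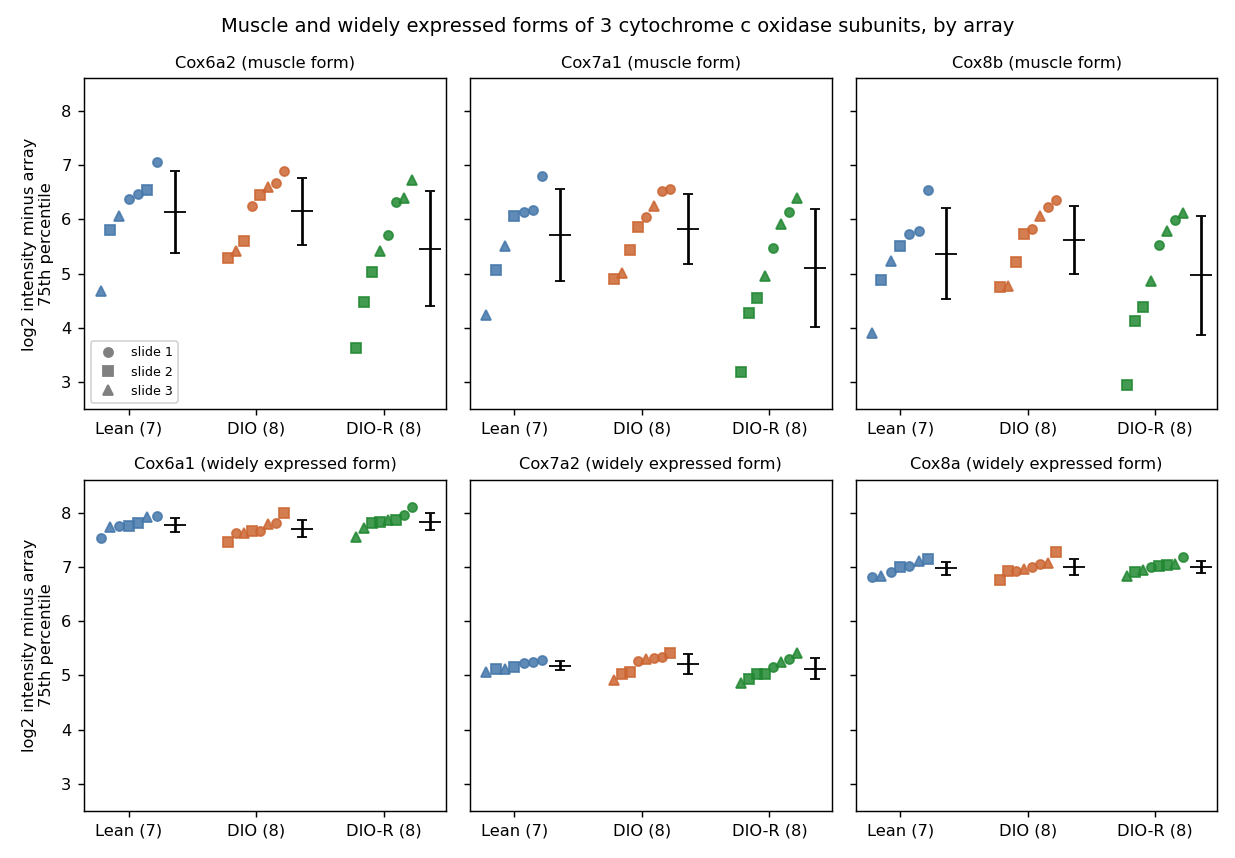
Log2 value (intensity minus the array's 75th percentile) of each array for 3 muscle forms (top) and their widely expressed counterparts (bottom), by group with the number of arrays and with the slide as the symbol; bars are mean ± SD. The muscle forms spread over 3.43 to 3.62 log2 units and their counterparts over 0.53 to 0.65.

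The counterparts kept a narrow range. Cox6a1 ran from 7.54 over 7.75 to 7.93 in Lean, from 7.46 over 7.66 to 7.99 in DIO and from 7.55 over 7.84 to 8.11 in DIO-R. Its DIO-R mean was 0.13 ± 0.08 above DIO, opposite in sign to Cox6a2 (limma adjusted p = 0.577). Cox7a2 had medians of 5.16, 5.29 and 5.09 in Lean, DIO and DIO-R, and Cox8a had 6.99, 6.98 and 7.01. Over the 23 arrays the SD was 0.16 for Cox6a1, 0.16 for Cox7a2 and 0.12 for Cox8a, against 0.86 for Cox6a2, 0.90 for Cox7a1 and 0.88 for Cox8b. The median SD was 0.21 over the 88 members and 0.31 over all genes kept, which were not matched for signal level.

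Across arrays the muscle forms followed the mean of the 31 skeletal muscle markers. The list holds mostly sarcomere, calcium-handling and glycolytic genes of muscle, besides Ckm, Mb and Des, and no member is among them. This mean ran from 1.34 (DIO-R replicate 5) to 4.27 (Lean replicate 7). By group it was 3.40 ± 0.67 (SD) in Lean, 3.40 ± 0.53 in DIO and 2.89 ± 0.89 in DIO-R. Pearson's r over 23 arrays was 0.99 for Cox6a2, 0.99 for Cox7a1 and 0.982 for Cox8b, and Spearman's rho 0.95, 0.97 and 0.945. The two-sided permutation p was 1e-05 in each case, the smallest that 100000 resamples can give, and 1e-05 after adjustment over the 6 values. Without the 2 arrays farthest from the median, DIO-R replicates 5 and 10, r was 0.981, 0.985 and 0.972. Within the 3 slides r lay between 0.988 and 0.993 for Cox6a2, between 0.974 and 0.987 for Cox7a1 and between 0.906 and 0.985 for Cox8b (exact permutation p at most 0.00151). Within the 3 groups r lay between 0.979 and 0.996 over the 3 forms. Markers and muscle forms were read from the same arrays and share their RNA. In RNA of whole tissue, fewer cells of a type and less RNA per cell cannot be told apart.

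**Figure D3:**
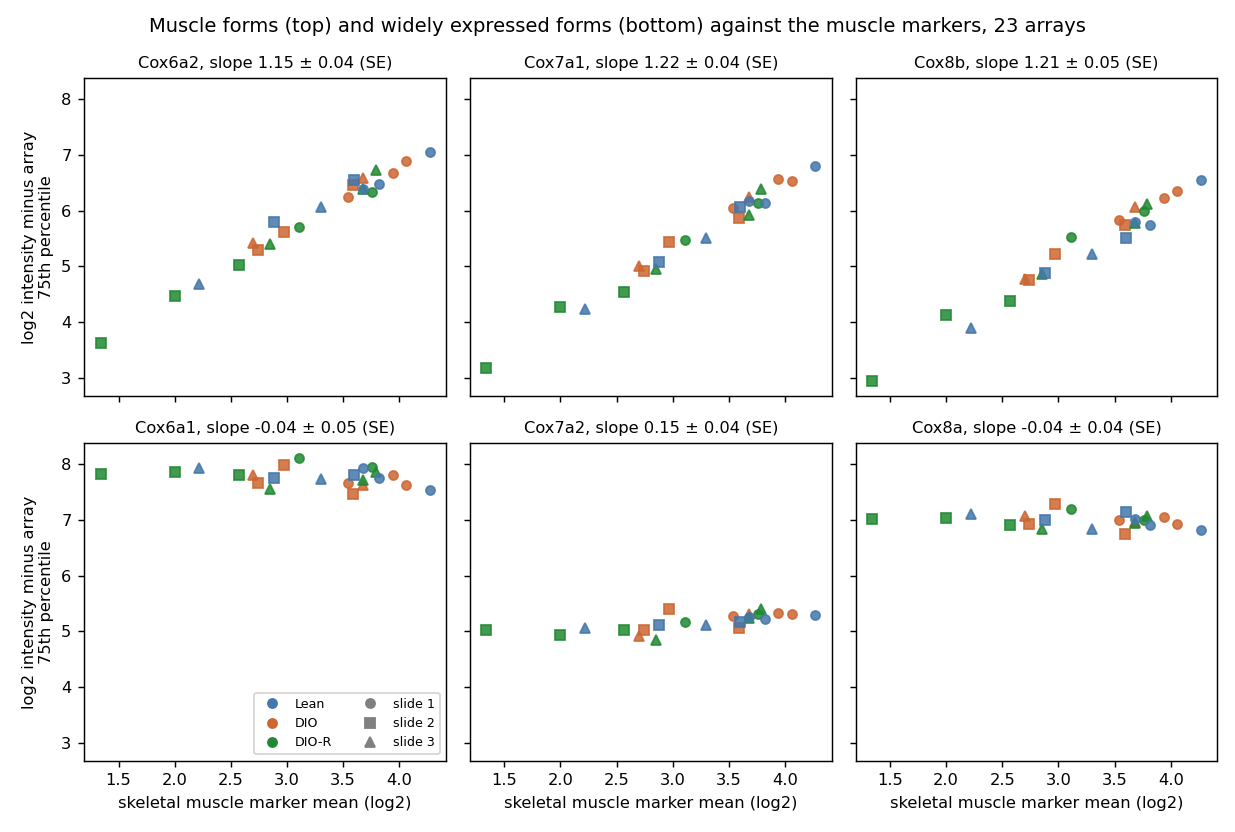
Log2 value of each muscle form (top) and its widely expressed counterpart (bottom) against the mean of 31 skeletal muscle markers, with each of the 23 arrays as a point, the group as colour and the slide as symbol. The panel titles give the slope within groups ± SE: 1.15 to 1.22 for the muscle forms and -0.04 to 0.15 for the counterparts.

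The other subunits moved with the same marker mean, by much less per unit. In a limma fit with group means and the marker mean (added after the data were seen), 71 of 88 members had a positive slope at an adjusted p under 0.05 and 0 a negative one. Under quantile normalization these numbers were 74 and 1. Of all genes, 5.5% passed with a positive slope and 2.89% with a negative one in the fit without quantile normalization. In that fit the median slope was 0.23 for members against -0.04 for all genes. The share of all genes that passed under quantile normalization is not given here. The muscle forms had slopes of 1.15 ± 0.04 (Cox6a2), 1.22 ± 0.04 (Cox7a1) and 1.21 ± 0.05 (Cox8b), close to the median of 1.1 for the muscle markers themselves. The marker mean is made of these markers, so their own slopes average about 1 by construction. A slope of 1 means that a doubling of the markers goes with a doubling of the gene.

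By complex, 35 of 36 subunits of complex I passed with a positive slope, and 4 of 4 of complex II, 8 of 8 of complex III, 8 of 11 of complex IV and 12 of 15 of ATP synthase. The marker mean differed between slides (3.77, 2.71 and 3.17), and with the slide as a block 27, 4, 4, 2 and 9 subunits passed in that order of complexes. The share of all genes that passed with the slide as a block is not given here, so these counts have no background beside them. Most median slopes were smaller within slides 1 and 2. Over all arrays and within slides 1, 2 and 3 they were 0.26, 0.17, 0.17 and 0.30 for complex I, and 0.28, 0.30, 0.18 and 0.35 for complex II. They were 0.23, 0.09, 0.13 and 0.28 for complex III. Complex IV had 0.22, 0.05, 0.11 and 0.26, and ATP synthase 0.23, 0.12, 0.16 and 0.29. The muscle forms differed little between slides, at 1.14, 1.2 and 1.29. In complex I the steepest were Ndufa5, a small subunit of the arm that takes up NADH's electrons (0.43 ± 0.04), Ndufs7, an iron-sulfur subunit (0.36 ± 0.03), and Ndufs1, the largest subunit (0.35 ± 0.04). Ndufa5 ran from 5.36 over 5.87 to 6.38 in DIO-R, with DIO-R replicate 5 lowest and replicate 7 highest, as for the muscle forms. In complex II the iron-sulfur subunit Sdhb had 0.34 ± 0.04 and the flavoprotein Sdha 0.18 ± 0.03. In complex III the Rieske iron-sulfur protein Uqcrfs1 had 0.34 ± 0.04 and the hinge protein Uqcrh 0.17 ± 0.05. In complex IV, Cox7c had 0.32 ± 0.04 and Cox5a 0.29 ± 0.04.

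The genes Atp5g1, Atp5g2 and Atp5g3 encode the same mature subunit c of the ATP synthase ring, and their slopes were in the order Atp5g1 (0.38 ± 0.04), Atp5g3 (0.24 ± 0.04) and Atp5g2 (0.11 ± 0.04, adjusted p = 0.0732 by limma). These are slopes of the brightest probes, and another Atp5g1 probe had -0.08 ± 0.05. The differences between the slopes were not tested. The 17 members with no slope past the threshold included Cox6a1 (-0.04 ± 0.05) and Cox8a (-0.04 ± 0.04), while the counterpart Cox7a2 passed with 0.15 ± 0.04 (limma adjusted p = 0.0212). The call of Cox7a2 was lost with the slide as a block (0.14 ± 0.06, limma adjusted p = 0.137) and with the adipocyte (0.889), von Ebner gland (0.15), taste bud (0.122), smooth muscle (0.0602) or erythrocyte (0.0503) mean as a covariate. The members without a call also included Atp5c1, the gamma subunit of the rotor (-0.04 ± 0.04, negative and past the threshold under quantile normalization), Cox6b1 (0.14 ± 0.05), Atp5d (0.12 ± 0.05) and Ndufab1, the mitochondrial acyl carrier protein (-0.09 ± 0.06). Another Atp5c1 probe had 0.32 ± 0.04, past the threshold. Of 4 assembly factors Ndufaf1 passed (0.23 ± 0.04), and of 3 associated proteins and 3 other tissue-restricted forms 0 passed. Cox4nb, the symbol that is no respiratory gene, had -0.09 ± 0.04. Among the 63 subunits with a promoter, the median slope was 0.20 for the 13 with NRF1 letters and 0.24 for the 50 without.

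The muscle markers did not vary alone. The mean of the 9 adipocyte markers followed the muscle marker mean across the 23 arrays (r = 0.878, rho = 0.839, two-sided permutation p = 1e-05 for both, the smallest possible). It was 0.845 without DIO-R replicates 5 and 10 (permutation p = 2e-05) and 0.756, 0.90 and 0.914 within the 3 slides (exact permutation p = 0.0244, 0.000471 and 0.00873). Among 8 marker lists, smooth muscle (r = 0.682, rho = 0.594, permutation p adjusted over the family 0.00132 and 0.00843) and the von Ebner gland, a salivary gland beneath the papilla (r = 0.698, rho = 0.529, adjusted p = 0.00182 and 0.0244), also followed the muscle mean. Without DIO-R replicates 5 and 10 these r were 0.69 and 0.639. Within slides they were 0.604, 0.618 and 0.897 for smooth muscle (exact permutation p = 0.123, 0.104 and 0.0135) and 0.677, 0.683 and 0.924 for the gland (exact permutation p = 0.0715, 0.0642 and 0.00476). The taste bud mean ran the other way (r = -0.535, rho = -0.71, permutation adjusted p = 0.0259 and 0.000853), with r of -0.544 without those arrays and -0.436, -0.594 and -0.655 within slides (exact permutation p = 0.262, 0.133 and 0.12). By array the taste bud mean ran from 0.05 over a median of 1.11 to 1.39 in DIO. It ran from 1.02 to 1.23 in Lean and from 0.94 to 1.34 in DIO-R. With the adipocyte mean also in the model, 3 of 88 members kept a slope past the threshold, namely Cox6a2 (1.01 ± 0.08), Cox7a1 (1.06 ± 0.08) and Cox8b (1.05 ± 0.09). The other 85 had a median slope of 0.10, 75 of them above 0, and 0 passed. The muscle part and the adipocyte part of these 85 slopes cannot be told apart in these arrays. With another list's mean in its place, 56 members passed for the von Ebner gland, 65 for smooth muscle, 66 for taste bud, 68 for erythrocyte, 73 for brown adipocyte, and 75 each for keratinocyte and fibroblast. With the slide as a block, 50 members passed in all. The shares of all genes stated above for the slope belong to the fit without these added terms. No such shares are given here for the fits that had them.

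**Figure D4:**
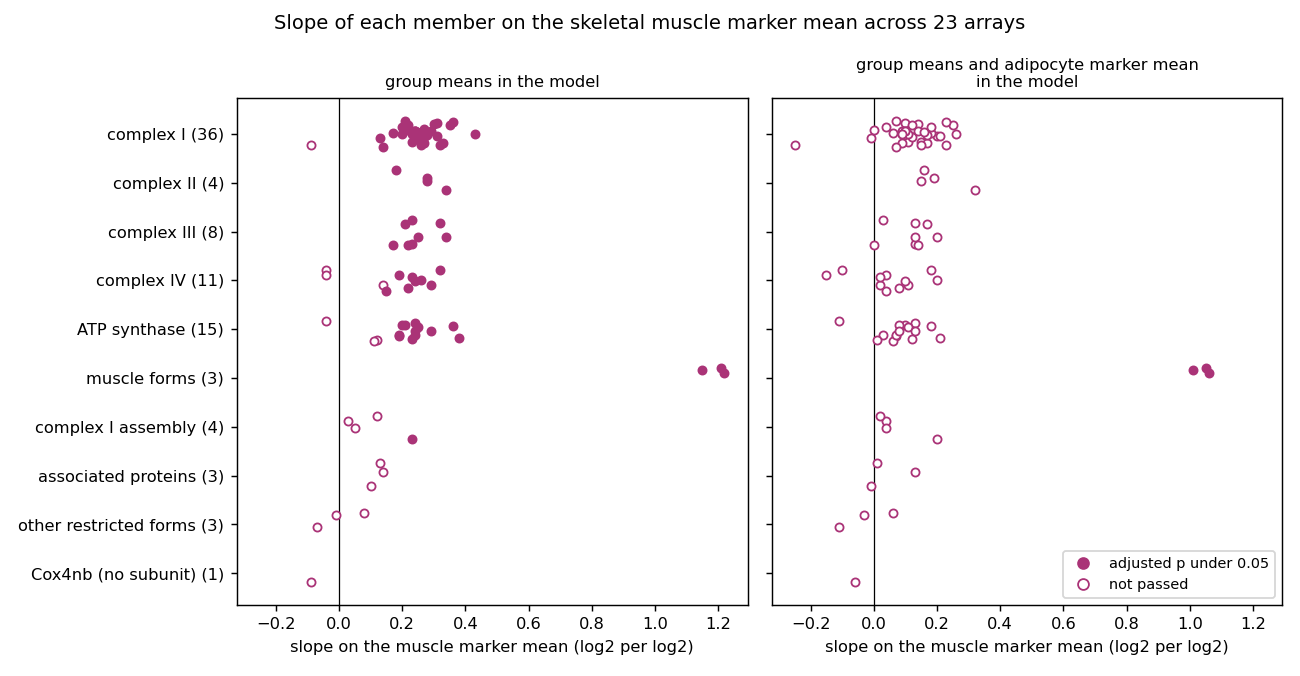
Slope of each member on the skeletal muscle marker mean over 23 arrays, by class, with group means in the model (left) and with the adipocyte marker mean added (right). Filled points passed an adjusted p of 0.05: 71 of 88 on the left, and 3 on the right, all of them muscle forms at 1.01 to 1.06.

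Between DIO-R and DIO, subunits of every complex lay lower in DIO-R by small amounts, and no gene passed. In all, 78 of 88 members were lower and 10 higher, with a median of -0.09 against 0.01 over all genes. Complex I had 35 of 36 lower (median -0.10), complex II 4 of 4 (-0.12), complex III 8 of 8 (-0.09), complex IV 8 of 11 (-0.05) and ATP synthase 13 of 15 (-0.08). The direction did not hold in every setting. It was -0.05 on slide 1, -0.19 on slide 2 and 0.06 on slide 3, and -0.02 without DIO-R replicates 5 and 10, with 59 of 88 lower. With the muscle marker mean as a covariate 61 of 88 were higher (median 0.02), and with the muscle and adipocyte means together 81 of 88 were higher (median 0.07). Adipocyte markers were lower in DIO-R than in DIO for 8 of 9 genes (median -0.82, lowest limma adjusted p = 0.197), with group means of -1.60 ± 0.87 (SD, n = 8) and -0.66 ± 0.81 (n = 8). All 4 erythrocyte and 6 fibroblast markers were lower in DIO-R (median -1.05 and -0.21) and all 8 keratinocyte markers higher (0.33), none past the test; the part of these shifts in the members' values was not tested.

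Atp5b, the catalytic beta subunit of ATP synthase, had the lowest p of the complex subunits in this comparison. It ran from 7.01 over 7.49 to 7.65 in DIO and from 6.97 over 7.20 to 7.40 in DIO-R, with Lean at 7.14 over 7.40 to 7.63. The DIO-R mean was 0.20 ± 0.10 below DIO (limma adjusted p = 0.525), and most DIO-R arrays lay within the DIO range. The next in ATP synthase by p were Atp5g1 at -0.20 ± 0.15 and Atp5k, subunit e, at -0.19 ± 0.13. Atp5k is uncertain because the files place its probe on chromosome Y although the gene lies on chromosome 5. Its other probes stood at -0.10 (placed on chromosome 5) and -0.14 (placed on Y). The other probe of Atp5g1 stood at 0.03.

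In complex I, Ndufa1 (-0.17 ± 0.11), the flavoprotein-arm subunit Ndufv2 (-0.17 ± 0.10) and Ndufv3 (-0.12 ± 0.09) had the lowest p, with limma adjusted values from 0.558 to 0.637. In complex II these were Sdhc (-0.17 ± 0.11), an anchor in the membrane, Sdhb (-0.15 ± 0.13) and Sdha (-0.09 ± 0.08). In complex III, Uqcr11, Uqcrb and Uqcrfs1 each stood at -0.11. In complex IV, Cox6c (-0.17 ± 0.12) and Cox7c (-0.16 ± 0.13) lay opposite to Cox6a1. The assembly factors Ndufaf1, Ndufaf2 and Ndufaf3 stood at -0.12, -0.02 and -0.03. All of these differences were within 2 standard errors.

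**Figure D5:**
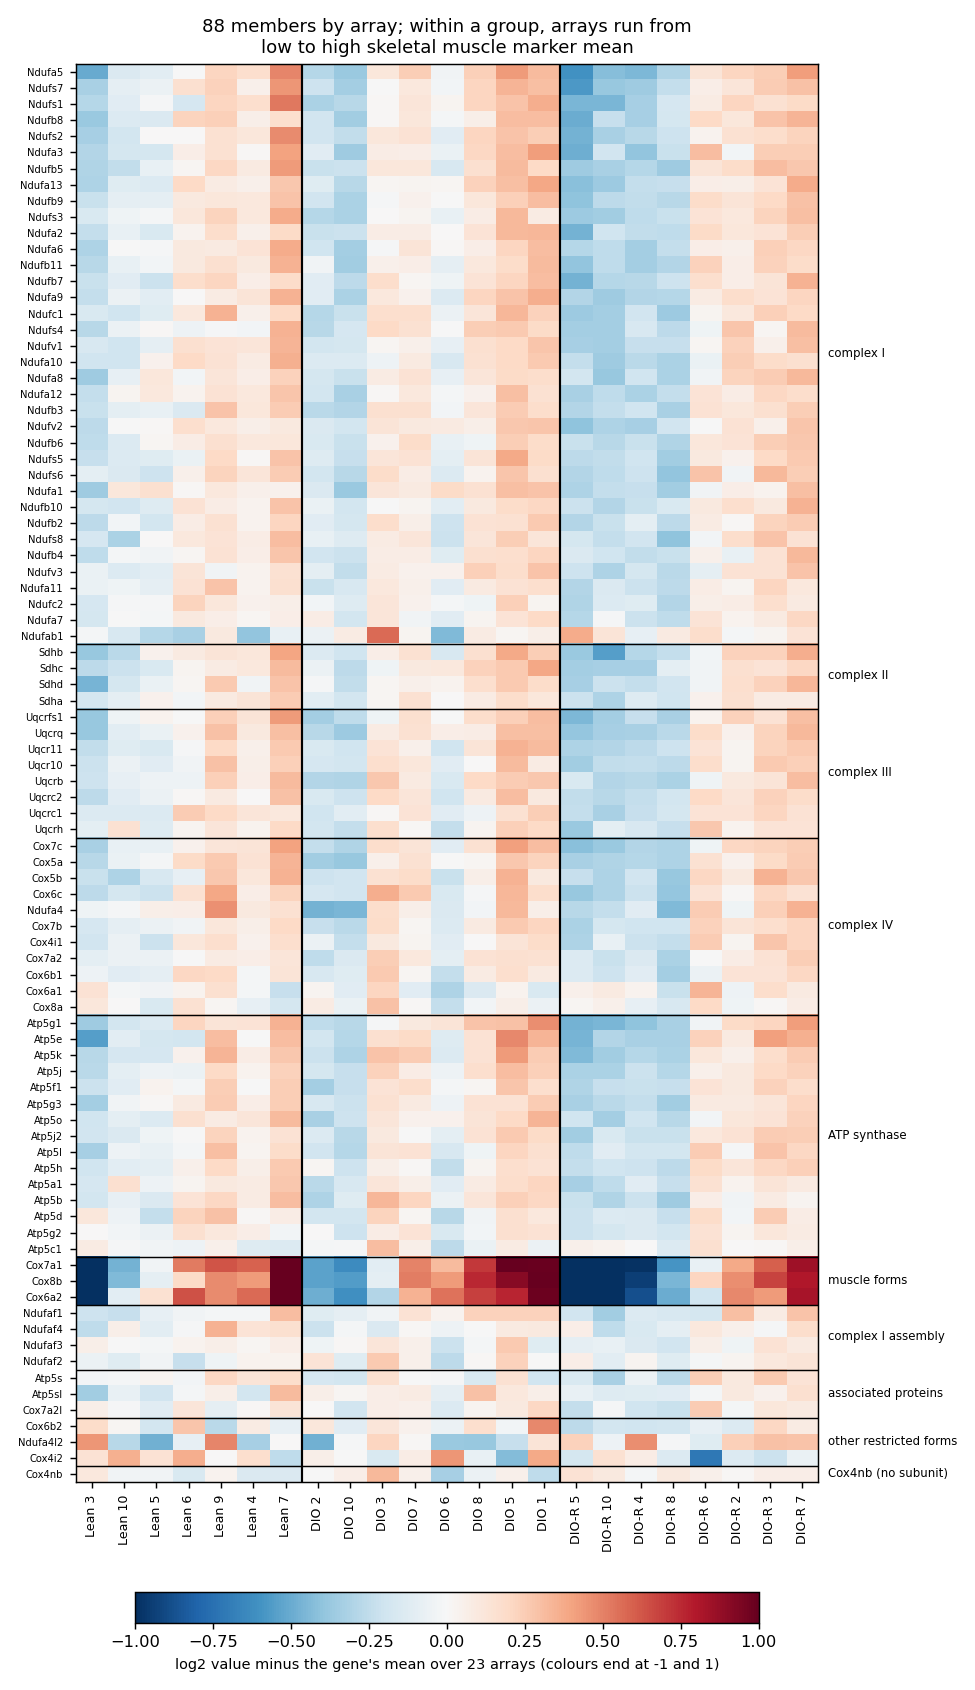
Log2 value of each of the 88 members minus the gene's mean over 23 arrays (colour, which ends at -1 and 1), with genes by class and then by slope, and arrays by group and then by skeletal muscle marker mean. Within each group most rows turn from blue to red as the marker mean rises, most strongly for the 3 muscle forms. Rows that do not include Cox6a1, Cox8a, Atp5c1, Ndufab1, Cox4nb, Cox4i2 and Ndufa4l2. Each row is the gene's brightest probe.

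Between DIO-R and Lean the members again lay mostly lower in DIO-R, and none passed. In all, 79 of 88 were lower and 9 higher (median -0.08, against -0.02 over all genes). Both comparisons use the same DIO-R arrays, so their like direction is not independent. The median was -0.02 on slide 1, -0.24 on slide 2 and 0.17 on slide 3. Without DIO-R replicates 5 and 10 it was 0.00, with 44 higher and 44 lower. With the muscle marker mean as a covariate 68 of 88 were higher (median 0.04). Of the markers, 28 of 31 skeletal muscle genes (median -0.53, lowest limma adjusted p = 0.389) and 8 of 9 adipocyte genes (median -0.72, lowest adjusted p = 0.211) were lower in DIO-R than in Lean. The adipocyte mean was -0.53 ± 0.84 (SD, n = 7) in Lean. With the muscle and adipocyte means together as covariates 84 of 88 members were higher (median 0.10).

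Ndufab1, which also serves lipoic acid and iron-sulfur cluster synthesis, had the lowest p of the members in this comparison and lay the other way. It ran from -0.04 over 0.19 to 0.45 in Lean, from -0.09 over 0.40 to 0.92 in DIO and from 0.27 over 0.46 to 0.72 in DIO-R. The DIO-R mean was 0.27 ± 0.11 above Lean (limma adjusted p = 0.452), and the groups overlapped. Ndufa10 (-0.14 ± 0.11) and Ndufa11 (-0.12 ± 0.09) followed in complex I. The values were -0.09 ± 0.08 for Sdha, -0.10 ± 0.14 for Sdhb and -0.07 ± 0.11 for Sdhc in complex II, and -0.10 ± 0.12 for Uqcrb, -0.08 ± 0.10 for Uqcrc1 and -0.14 ± 0.13 for Uqcrfs1 in complex III. In complex IV they were -0.16 ± 0.12 for Cox5a, -0.12 ± 0.13 for Cox6c and -0.14 ± 0.13 for Ndufa4. In ATP synthase they were -0.17 ± 0.10 for Atp5b, -0.12 ± 0.09 for Atp5a1, the alpha subunit, and -0.12 ± 0.11 for Atp5g3.

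Between DIO and Lean the members were nearly level. Of 88, 56 were higher and 32 lower in DIO, with a median of 0.02 against -0.04 over all genes. By complex the medians were 0.02 (I), 0.07 (II), 0.00 (III), 0.01 (IV) and 0.01 (V). The split moved with the scaling: 77 were higher under quantile normalization (median 0.08) and 79 in the authors' value table (median 0.07). Ndufab1 stood at 0.21 ± 0.11 (limma adjusted p = 0.604) and Ndufa4, a subunit of complex IV despite its name, at -0.17 ± 0.13 (adjusted p = 0.773). Cox5a and Cox6a1 stood at -0.09 and -0.07, Atp5e at 0.14 ± 0.16, and Ndufs3, Sdhc and Uqcr11 at -0.11, 0.10 and 0.06. Of these, Ndufab1 lay farthest from 0 in standard errors. Marker genes of other cell types shifted in this comparison with no call: all 8 keratinocyte markers were lower in DIO (median -0.3), and all 6 fibroblast and 4 erythrocyte markers higher (0.38 and 1.02). Their part in the members' values was not tested.

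Of the 3 other tissue-restricted forms measured, Cox4i2 and Cox6b2 had lower means in DIO-R than in both other groups and Ndufa4l2 a higher one, and none passed. Ndufa4l2, a hypoxia-inducible relative of Ndufa4, ran from 2.78 over 3.18 to 3.75 in Lean, from 2.78 over 3.14 to 3.47 in DIO and from 3.14 over 3.49 to 3.72 in DIO-R. Its DIO-R mean was 0.30 ± 0.14 above DIO (limma adjusted p = 0.504), and the groups overlapped. Cox4i2, the form of subunit 4 known from lung and hypoxic tissue, ran from -0.09 over 0.31 to 0.53 in Lean, from -0.27 over 0.19 to 0.61 in DIO and from -0.55 over 0.03 to 0.32 in DIO-R. Its DIO-R mean was 0.28 ± 0.13 below Lean (limma adjusted p = 0.538). Cox6b2, known from testis, had medians of -0.65, -0.60 and -0.83 and a DIO-R mean 0.18 ± 0.09 below DIO (adjusted p = 0.521). Their slopes on the muscle marker mean were -0.01 ± 0.09, -0.07 ± 0.08 and 0.08 ± 0.06, none past the threshold; within slides the median of the 3 was 0.19, 0.18 and -0.07.

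The mitochondrial genome encodes 13 further subunits of complexes I, III, IV and V, and the array carried all 13 under their own symbols (a list added after the data were seen). None passed the test in any comparison (lowest limma adjusted p = 0.737, 0.514 and 0.787). In DIO-R against DIO 12 of 13 were lower (median -0.17), in DIO against Lean 10 of 13 higher (0.14), and in DIO-R against Lean 11 of 13 lower (-0.06). ND1, a core subunit of complex I, ran from 3.82 over 4.52 to 5.07 in Lean, from 4.36 over 4.89 to 5.05 in DIO and from 3.68 over 4.5 to 5.15 in DIO-R. COX1, the catalytic subunit of complex IV, had medians of 9.54, 9.58 and 9.45. On the muscle marker mean, 9 of 13 had a slope past the threshold, with a median of 0.28, near that of the nuclear subunits. In this fit 5.5% of all genes passed with a positive slope and 2.89% with a negative one. The fit held neither the adipocyte mean nor the slide, with either of which fewer members passed.

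Genes around the chain gave no call either. Of 14 citric acid cycle genes, 13 were lower in DIO-R than in DIO (median -0.14) and 14 lower than in Lean (-0.09). A positive slope on the muscle marker mean passed the threshold for 13 of 14, against 5.5% of all genes. That fit held neither the adipocyte mean nor the slide. Of 9 genes for cytochrome c and other electron carriers, 7 were lower in DIO-R than in DIO (median -0.08). The 27 measured assembly factors outside the rule were nearly even in that comparison (11 higher, 16 lower, median -0.02), with single genes from -0.64 to 0.20. The 17 genes of mitochondrial DNA expression and its regulators were nearly even by count and median (7 higher, 10 lower, median 0.00). Single genes of that list ran from -0.86 to 0.23 (lowest limma adjusted p = 0.486). Among 6 uncoupling proteins and carriers, Ucp3, the uncoupling protein of muscle and brown fat, came nearest to the threshold. It ran from 2.5 over 2.68 to 2.79 in Lean, from 2.47 over 2.75 to 3.01 in DIO and from 2.22 over 2.43 to 2.51 in DIO-R. Its DIO-R mean was 0.34 ± 0.07 below DIO (limma adjusted p = 0.0861) and 0.27 ± 0.07 below Lean (adjusted p = 0.194). Ucp2, a relative with a wide tissue range, was 0.29 ± 0.08 lower in DIO-R than in DIO (adjusted p = 0.317). Gpd2, the mitochondrial glycerol phosphate dehydrogenase, was 0.24 ± 0.08 higher in DIO-R than in Lean (adjusted p = 0.299). In DIO against Lean the lowest p belonged to Sco2, a copper chaperone of complex IV (-0.15 ± 0.06), and Nubpl, an iron-sulfur assembly factor of complex I (0.17 ± 0.07).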

How the data were processed

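The authors deposited scanner files of 23 1-colour arrays. Spot intensity was background-subtracted and detrended within each array, per the file headers, by Feature Extraction (version 10.10.1.1), with nothing equalised between arrays. The authors also deposited log2 values for 35829 probes; their steps are not stated beyond limma, per the submitters' processing notes, and array medians of 7.63 to 7.64 show a common scaling. They served as an alternative.

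From the processed intensity, log2 minus the array's 75th percentile was computed over spots that are not controls; outlier spots were dropped and spots of a probe averaged. A gene took its brightest probe and was kept if well above background on at least 7 arrays. Tests used limma 3.58.1 in R 4.3.3 with data.table (version 1.17.8) and were checked on simulated data; correlations used Python 3.11.15, numpy 2.4.6 and scipy 1.17.1, and plots matplotlib 3.10.9. Probe positions are mm9, per the file headers; exons of mm9 were not used here. Symbols matched a RefSeq accession for 88 of 90 members, and 4 have newer names.

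Members and gene lists were chosen with earlier results of these data known. Genes were named by rule: the tissue-restricted forms, every member that passed, and, per comparison, the 3 with the lowest p in each complex and among assembly factors, and 2 from the surrounding lists. Others named for slope or as counterparts were chosen after their values were seen. Alternatives tried were normexp, quantile normalization, the value table, slide or replicate blocks, array weights, marker covariates and left-out arrays; fits without DIO-R replicates 5 and 10, slope fits and the joint muscle and adipocyte covariates were chosen after seeing the data.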

Additional observations from a re-analysis of the deposited data

Results flagged for a closer look

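Single arrays stood apart from their group for 5 members, each by a gap to the nearest array that took up most of the group's range. Such a gap appears by chance in about 1 group in 20, or 6.3 of the 126 groups examined for 41 members and the muscle marker mean. Cox4i2 was at -0.55 in DIO-R replicate 6, where the other DIO-R arrays lay between -0.05 and 0.32. In Lean replicate 3, Ndufa1 was at 5.09 (others 5.46 to 5.61) and Ndufv2 at 4.42 (others 4.68 to 4.85); that array also had the lowest skeletal muscle marker mean of its group, 2.22. Ndufa4 was at 5.52 in Lean replicate 9, above the 5.02 to 5.22 of the others. Ndufaf1 was at 1.94 in Lean replicate 7, above the 1.40 to 1.61 of the others; that array had the highest muscle marker mean, 4.27. The part of the muscle signal in these values was not tested.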

How the results depend on the processing

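No member passed in any comparison under any alternative fit, and the lowest adjusted p of a named member was 0.165 (DIO against Lean), 0.289 (DIO-R against DIO) and 0.149 (DIO-R against Lean). The sign of a named member changed in 32, 36 and 48 of 984 pairs of gene and setting. The members' median moved by more than the spread between arrays (SD 0.233) for DIO-R against Lean within slide 3 (0.17). Leaving out each array in turn gave medians from -0.02 to 0.05, from -0.13 to -0.05 and from -0.11 to -0.04.

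The count of all genes that passed was less stable, and the cause was not tested. For DIO against Lean it was 1, and 2 with normexp, 9 in the authors' value table, 3 with the slide as a block, 3 with trend and robust eBayes, 58 with array weights, 36 with the muscle covariate, 19 with muscle and adipocyte covariates and 27 without DIO replicates 1 and 6. For DIO-R against DIO it was 17, and 27 with quantile normalization, 26 in the value table, 37 with array weights, 10 without DIO replicates 1 and 6 and 10 without DIO-R replicates 5 and 10. For DIO-R against Lean it was 36, and 109 with array weights, 60 with the muscle covariate, 58 without DIO replicates 1 and 6 and 14 without DIO-R replicates 5 and 10. Leaving out each array gave 1 to 37 (37 without DIO replicate 6, 22 without Lean replicate 7, 8 without DIO-R replicate 6), 11 to 24 (11 without DIO replicate 1, 6 or 8 or DIO-R replicate 5 or 10) and 26 to 65 (65 without Lean replicate 3).

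The slope on the muscle markers passed for 71 members, for 68 to 74 with each array left out, and for 3 with the adipocyte covariate, alone or with fibroblast and keratinocyte means. The muscle forms' r lay between 0.973 and 0.993 with each array left out. With the replicate block, 0, 4 and 9 genes passed and 0 members. Same-numbered arrays of 2 groups had correlations of -0.37 to 0.33 (median -0.03) after group means were removed. Of these, 4 of 18 pairs exceeded 0.1, and 4 of 21 arrays correlated best with their own number. No chance level was computed, so these values do not settle whether the numbers mark a pairing.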

Other observations

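In all, 30 members were read by more than 1 probe, and 35 of their 44 other probes lay on the same side of the slope threshold as the brightest, where the slope is that on the skeletal muscle marker mean. Examples, chosen after their values were seen, are Ndufa5 (0.43 ± 0.04 for both probes), Uqcrq (0.32 ± 0.04 and 0.35 ± 0.05) and Sdhc (0.28 ± 0.03 and 0.33 ± 0.04). Cox8a gave no slope past the threshold with either of its probes (-0.04 ± 0.04 and -0.01 ± 0.04). The 6 probes of Atp5l lay between 0.16 and 0.22.

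Atp5c1 was an exception. Its gamma subunit of ATP synthase is known for a splice form found in heart and skeletal muscle. The brightest probe, whose mm9 position chr2:9977788-9980644 crosses an intron, had a slope of -0.04 ± 0.04 (limma adjusted p = 0.566), and the other, at chr2:9977665-9977724, had 0.32 ± 0.04 (adjusted p = 7.79e-07). Both probes carry the same transcript accession in the files. The difference between the probes was not tested, and which transcript each detects is not known from the files. Atp5g1 had 0.38 ± 0.04 for the brightest probe and -0.08 ± 0.05 for the other. Of the 9 probes on the other side of the threshold, the remaining 7 belonged to Cox7c, Ndufa3, Ndufb11, Ndufb5 and Ndufv3. In the group comparisons, 21, 13 and 6 of 44 other probes had the opposite sign to the brightest probe for DIO against Lean, DIO-R against DIO and DIO-R against Lean.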
